A study of Mus musculus with 2 samples.

Results

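The genes described here encode the chemokine receptor CCR2 and the monocyte-attracting chemokines that bind it. They are Ccl2, Ccl7, Ccl8, Ccl12 and Ccr2, and every non-control probe whose transcript identifier belongs to one of them was used. Each gene had 1 probe, so the set held 5 of the 20653 genes that could be named on the array. RNA came from tumour-infiltrating monocytic myeloid-derived suppressor cells (M-MDSCs) and was hybridised to Agilent one-colour arrays, with 1 array for mice on a normal-salt diet (NSD) and 1 for mice on a high-salt diet (HSD). All mice were young adult females, of the strain given as BABL/c, and were starved for 1 day before 1000000 cells of the mammary carcinoma line 4T1 were placed under the skin of the left armpit. The NSD was chow with 0.4% NaCl and tap water, and the HSD was chow with 4% NaCl and drinking water with 1% NaCl. Both diets were given for 16 days, and the tumours were taken on day 16. M-MDSCs were taken from the tumours with an MDSC isolation kit, and equal numbers of cells were mixed within each diet group before RNA was extracted. Mice of one diet therefore contributed 1 pooled value per probe, so the mice had no measured spread and the diet could not be tested.

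CCR2 is a G protein-coupled receptor of inflammatory monocytes, which follow its ligands out of the bone marrow and into inflamed tissue and tumours. CCL2, CCL7, CCL8 and CCL12 are small secreted proteins of the CC chemokine family, whose genes lie close together in the mouse, and macrophages, stromal cells and tumour cells can all secrete them. In tumours this axis is known for drawing in monocytes that become macrophages or suppressor cells.

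Each array carried 43020 spots that were not controls, none of them saturated, and the signal had a 75th percentile of 252 intensity units under NSD and 233 under HSD. The software called 71.9% of probes well above background under NSD and 72.4% under HSD, and its lowest signal so called was 4.61 and 4.39 intensity units, respectively. Of 153 negative control spots per array, the 95th percentile was 1.32 intensity units under NSD and 1.28 under HSD, while single spots reached 16.5 and 10.8. A log2 difference here is HSD minus NSD, after the 75th percentile of its array was subtracted from each value. A gene was called lower or higher when 1 or both arrays had its probe well above background and the arrays were at least 1.5-fold apart after scaling. Where it was dim on 1 array, the difference is a bound, taken against its own signal there or the lowest signal called well above background, whichever was higher. The sample label was set against cell type markers. All 13 monocyte markers with a probe were well above background on both arrays, among them Ly6c1 with 51811 intensity units under NSD and 48478 under HSD. All 12 neutrophil markers with a probe were also well above background on both arrays, among them Csf3r, the receptor of the granulocyte growth factor, with 53939 and 54723. The markers alone therefore do not set the preparation apart from one that also holds granulocytic cells, and Ly6g and Ly6c2, which would separate the classes best, were not analysed here.

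Ccl2, the main monocyte chemoattractant, was clearly weaker on the HSD array. Its probe A_51_P286737 was printed in 10 spots per array, and their lowest, median and highest signals were 1115, 1310 and 1367 intensity units on the NSD array. On the HSD array the lowest, median and highest spots of Ccl2 were 211.4, 232.0 and 242.9 intensity units. The spots of the arrays did not overlap, and the weakest NSD spot was 4.59-fold brighter than the strongest HSD spot. The mean over spots was 1275 intensity units (SD of log2 = 0.09, 10 spots) under NSD and 229.6 (SD of log2 = 0.06, 10 spots) under HSD. After scaling, the log2 difference of Ccl2 was −2.36, which is 5.13-fold lower in the HSD group. Taken spot by spot at the same array position, the log2 difference of Ccl2 lay between −2.48 and −2.19. These spots repeat the measurement of 1 pooled RNA, so their spread covers the array and not the mice. Before any correction the Ccl2 spots had a median brightness of 1256.5 over a local background of 17 on the NSD array, and of 242.25 over 17.5 on the HSD array, so the signal stood far above background on both.

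Ccl7, a ligand of CCR2 that also binds other CC receptors, was measured well above background on the NSD array alone. Its only spot, of probe A_51_P436652, gave 49.2 ± 5.04 intensity units on the NSD array, where the error is the one the extraction software assigns to a spot. On the HSD array the same probe gave 4.10 ± 1.29 intensity units and was not well above background. There, 4 of the 153 negative control spots were at or above this signal. The raw brightness of Ccl7 was 63.5 over a local background of 17 under NSD and 20 over 18 under HSD. Ccl7 was thus lower under HSD by at least 10.3-fold (log2 bound −3.37, and −3.47 from the measured signals). The size of this bound depended on the background correction, since the normexp correction, a model-based background subtraction here with an offset of 50 added to each spot, gave a log2 difference of −0.72 for Ccl7.

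**Figure D1:**
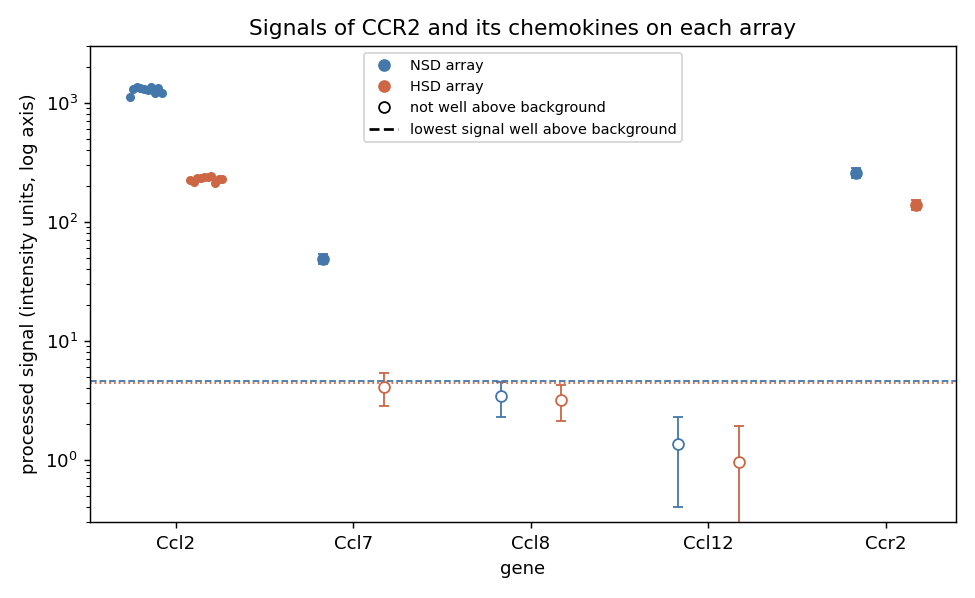
Processed signal, in intensity units on a log axis, of each spot of Ccl2, Ccl7, Ccl8, Ccl12 and Ccr2 on the NSD array and the HSD array; for single spots the bars are the error given by the extraction software, open circles mark probes not well above background, and the dashed (NSD) and dotted (HSD) lines mark the lowest signal called well above background. The 10 Ccl2 spots of each array form separate bands, Ccl7 drops to the background line on the HSD array, Ccl8 and Ccl12 lie under the lines on both arrays, and Ccr2 is lower on the HSD array.

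Ccl8 and Ccl12 also encode CCR2 ligands, and mouse CCL8 is known to bind CCR8 as well. Neither probe was well above background on either array, so no fold change is given. Ccl8 (A_51_P464703) gave 3.42 ± 1.12 intensity units under NSD and 3.20 ± 1.06 under HSD. Ccl12 (A_55_P1984556) gave 1.35 ± 0.946 under NSD and 0.971 ± 0.967 under HSD. Within the software's error, the signals of each gene overlapped between the arrays. For Ccl12, 77 of the 153 negative control spots of the HSD array were at or above its signal. A difference in Ccl8 or Ccl12 was not detectable at this signal, which does not show that these transcripts were absent. The promoter sequences of both genes were in the RefSeq promoter table for GRCm38.p6, and the 120 bases before the start are shown (5′ to 3′, plus strand, with TATAAA, the letters of a TATA box, in capitals). These windows are shown because they were in that table and do not overlap annotated transcript sequence, and their signal played no part in the choice. Ccl12 is read from chr11:82101725-82101844 and Ccl8 from chr11:82115065-82115184.
Ccl12: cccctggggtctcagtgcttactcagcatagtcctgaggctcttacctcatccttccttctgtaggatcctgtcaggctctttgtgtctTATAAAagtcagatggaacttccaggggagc
Ccl8: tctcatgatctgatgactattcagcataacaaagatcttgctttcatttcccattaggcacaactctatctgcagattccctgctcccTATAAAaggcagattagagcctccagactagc
The TATAAA letters lay 31 to 26 bases before the start in Ccl12 and 32 to 27 bases before it in Ccl8, and 12.4% of the 32851 promoters in the table hold them on either strand in the 250 bases before the start. Over those 250 bases and both strands, neither gene matched the letters searched for NF-kB (GGNNTTTCC, in 4.93% of promoters), AP-1 (TGANTCA, 6.75%), C/EBP (TTNNGNAAT, 10.2%) or the interferon-stimulated response element (GAAANNGAA, 7.13%). Promoters of Ccl2 and Ccl7 were not in the table, so the ligand genes that were called lower are not shown. The window of Ccr2, which was also called lower, is not printed because it overlaps annotated transcript sequence. Over the same 250 bases it matched the letters for C/EBP (244 to 236 bases before the start) and for the interferon-stimulated response element (86 to 78 bases before it), both on the minus strand, and none of the other motifs.

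Ccr2, the receptor itself, was lower in the HSD group by less than its ligand Ccl2. Its single spot, of probe A_51_P245989, gave 258.9 ± 25.9 intensity units under NSD and 139.0 ± 13.9 under HSD. The software's error ranges did not overlap, and both spots were well above background, with a raw brightness of 268 over 16 under NSD and 139 over 18 under HSD. The log2 difference of Ccr2 was −0.78 after scaling, a 1.72-fold lower level in the HSD group. Probes printed in several spots show the noise of an array near this signal. Among those within 2-fold of the Ccr2 signal, the median SD of log2 between spots was 0.06 under NSD (56 probes) and 0.08 under HSD (61 probes). The highest SDs there were 0.22 and 0.26. Near the Ccl7 signal the median SD was 0.10 on the NSD array (71 probes) but 0.42 on the HSD array (59 probes), where its signal was dim. These SDs compare repeat spots within 1 array, so they do not cover variation between arrays or between mice. In a pooled preparation, fewer cells that express a gene and less RNA per cell cannot be told apart, and this holds for each difference given here.

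All 3 members with a usable probe were lower in the HSD group and none was higher. Of the 16312 named genes that had a usable probe, 1682 (10.3%) lay at least 1.5-fold lower and 1608 (9.86%) at least 1.5-fold higher, with a median log2 difference of 0.05. The split between directions moved with the scaling, as 51.1% of the called genes were lower here and 61.5% were after cyclic loess. Ccl2 and Ccl7 were also at least 4-fold lower, as were 152 genes in all (0.932%). A log2 difference as low as that of Ccl2 or lower was found for 95 genes (0.582%), as low as the bound of Ccl7 for 25 genes (0.153%) and as low as that of Ccr2 for 1055 genes (6.47%). On this scale Ccl2 and Ccl7 lay far out in the lower tail of all genes, whereas Ccr2 lay nearer its shoulder.

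**Figure D2:**
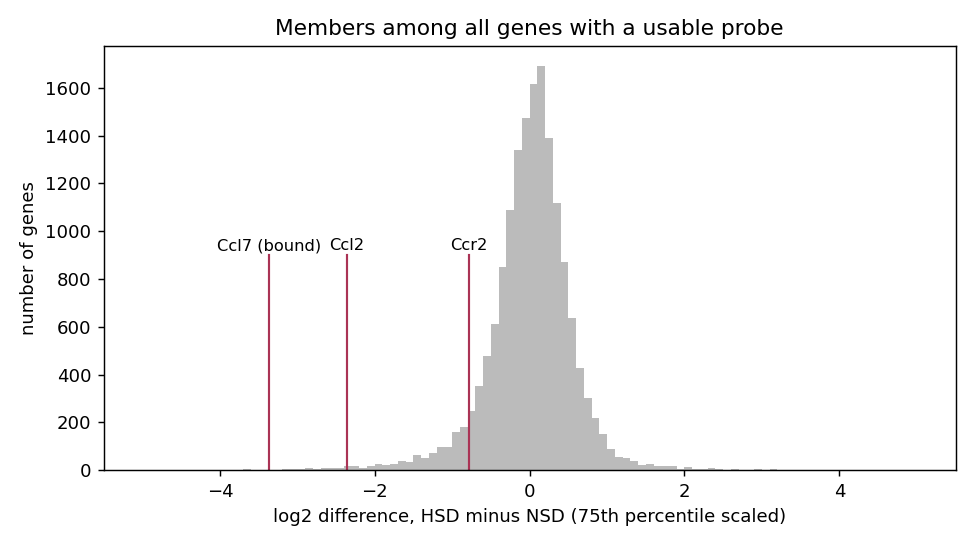
Number of named genes with a usable probe by log2 difference, HSD minus NSD, in steps of 0.1, with vertical lines at Ccl7 (−3.37, a bound), Ccl2 (−2.36) and Ccr2 (−0.78). The line heights carry no value, and 10.3% of the genes were at least 1.5-fold lower.

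The ligand genes lie side by side on chromosome 11 in the order Ccl2, Ccl7, Ccl11, Ccl12, Ccl8 and Ccl1. Of these 6 neighbours, Ccl2 and Ccl7 at one end were called lower, and the other 4 were dim on both arrays. Ccl11 (eotaxin, an attractant of eosinophils) gave 0.942 intensity units under NSD and 1.69 under HSD, and Ccl1 (the ligand of CCR8) gave 0.958 and 0.906. On chromosome 9, Ccr2 lies in a row with other chemokine receptor genes, among them Ccr9, Ccr1, Ccr1l1 and Ccr3. Ccr3, the eotaxin receptor, gave 33.0 intensity units under NSD and 13.2 under HSD (log2 difference −1.21). Ccr9, the receptor of CCL25, gave 101.8 and 56.4 (−0.74). In contrast, Ccr1, also a receptor of myeloid cells, gave 1116 intensity units under NSD and 1003 under HSD (−0.04), and its paralogue Ccr1l1 gave 416 and 391 (0.02). Thus lower signal was not shared along the whole row. Chemokine receptors of this row are related in sequence, and the files did not hold the probe sequences, so whether the Ccr2 probe also binds other transcripts was not tested. With normexp correction Ccr3 (−0.30) and Ccr9 (−0.40) fell short of 1.5-fold, whereas Ccr2 did not (−0.69).

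Other CC chemokine ligands moved in both directions. Of the 15 with a probe, 10 were usable, 4 were lower and 2 were higher under HSD, and the median log2 difference was 0.12 against 0.05 over all genes. Ccl5 (RANTES, a ligand of CCR1 and CCR3) gave 1168 intensity units under NSD and 385.1 under HSD, a log2 difference of −1.49. Ccl6 and Ccl9, myeloid chemokines that bind CCR1, gave 5167 and 2683 (−0.83) and 2524 and 1424 (−0.71). Ccl24, another eotaxin, gave 16.5 and 8.70 (−0.81), a call lost with normexp correction (−0.09). The higher ligands were Ccl19, which attracts CCR7-bearing cells, with 196.5 and 374.1 (1.04), and Ccl4, an inflammatory chemokine of myeloid cells, with 5935 and 8661 (0.66). The Ccl19 call rests on its brightest probe, as another gave 0.19, within 1.5-fold, and the remaining probe was not usable. Ccl4 passed 1.5-fold under 5 of 8 processings (the one reported and 7 alternatives) and fell short of it after cyclic loess (0.55). None of these ligands reached the size of the Ccl2 or Ccl7 difference, except that with normexp correction Ccl5 (−1.27), Ccl19 (0.95), Ccl9 (−0.76) and Ccl6 (−0.75) differed by more than Ccl7 (−0.72).

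Among the other chemokine receptors, 17 of 18 were usable, 4 were lower and 5 were higher, with a median log2 difference of −0.02. The lower receptors included Ccr3, Ccr9 and Cxcr3, a receptor of interferon-induced chemokines, which gave 86.5 intensity units under NSD and 47.9 under HSD (−0.74). With normexp correction Cxcr3 (−0.27) was not called either. The higher receptors were led by Cxcr1, a neutrophil chemokine receptor, with 76.4 and 218.1 (1.63), and Ccr8, which gave 74.5 and 145.3 (1.08). Ccr6, the receptor of CCL20, gave 1269 and 2191 (0.90), and Cx3cr1, a receptor typical of patrolling monocytes, gave 118.8 and 187.9 (0.78). Ccrl2, a receptor that binds chemerin without signalling, was also higher (0.75). Ccr2 was therefore one of 5 receptors called lower, beside 5 called higher. Of 5 atypical receptors, which bind chemokines without G protein signalling, Ackr1 (log2 difference −0.17) and Ackr2 (−0.24), a scavenger of CCL2, were usable, and neither was called.

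Genes that carry the signal of chemokine receptors were mostly within 1.5-fold, as were most of all genes. Of 28 such genes, all usable, 3 were lower and 2 were higher, with a median log2 difference of 0.15. Over all genes, 10.3% were lower and 9.86% higher, with a median of 0.05. The lower genes were the regulators of G protein signalling Rgs1, with 197.5 intensity units under NSD and 58.5 under HSD (−1.64), and Rgs10, with 1966 and 1059 (−0.78), and the receptor kinase Grk3 with 117.9 and 53.1 over 10 spots each (−1.04). All 3 encode proteins that turn receptor signals down, but other such genes of the list were within 1.5-fold. Among these were Rgs14 (0.45), Arrb2 (0.23), Grk2 (−0.21) and Arrb1 (−0.35). The receptor kinase Grk6 was within 1.5-fold by its brightest probe (0.42), but another probe gave −1.33. The higher genes were Gnb1, a G protein beta subunit (0.68), and Elmo1, which links receptors to Rac (0.62). Grk3 (−0.58) and Elmo1 (0.28) fell short of 1.5-fold with normexp correction. Gnb1 passed it under 5 of 8 processings, not after cyclic loess (0.57). Another Gnb1 probe gave 0.02. Nup85, whose protein is also known as a partner of CCR2 in chemotaxis, differed by less than 1.5-fold (−0.30).

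Known regulators of Ccl2 transcription and mRNA decay also moved both ways. Of 24 genes, 23 were usable, 4 were lower and 3 were higher, with a median log2 difference of 0.16. The stress-induced factor Atf3 gave 586.8 intensity units under NSD and 217.3 under HSD (−1.32). The AP-1 subunit Fos, with 10 spots, gave 5514 and 2633 (−0.95), and Junb gave 98.5 and 56.6 (−0.68). Of these, Junb (−0.36) was not called with normexp correction. The higher genes were Nfkbia, the NF-kB inhibitor and itself an NF-kB target, with 17032 and 28833 (0.87), and Sp1 (0.60) and Zc3h12a (0.59), the last an RNase that degrades cytokine mRNAs. Sp1 and Zc3h12a passed 1.5-fold by a small margin, under 3 of 8 processings, and fell short of it with normexp correction (0.55 and 0.52). The NF-kB subunits Rela (0.14) and Nfkb1 (0.16) and the decay factor Zfp36 (0.35) were within 1.5-fold.

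Cytokines and receptors known to induce Ccl2 moved in both directions as well. Of 22 genes, 21 were usable, 4 were higher and 2 were lower, with a median log2 difference of 0.25. Tnf, with 10 spots, gave 688 intensity units under NSD and 1299 under HSD (1.03). The interleukin-1 receptor Il1r1 was not well above background under NSD (3.89) and gave 55.6 under HSD, so its log2 difference is a bound of 3.70, and it was 0.92 with normexp correction. The other higher genes were Tlr4, the endotoxin receptor (0.60), and Pdgfrb, a growth factor receptor of stromal cells (0.59). Tlr4 passed 1.5-fold under 5 of 8 processings, not after cyclic loess (0.53). Pdgfrb passed it under 4 of 8, not with normexp correction (0.17). The lower genes were Il1a with 33.2 and 16.3 (−0.91) and Pdgfb with 48.4 and 19.5 (−1.20), neither called with normexp correction. Another Pdgfb probe gave 0.14, in the other direction and within 1.5-fold. Ccl2 and Tnf, both read from 10 spots, thus differed in opposite directions between these arrays.

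Markers of macrophages, which are a known source of CCL2 and CCL7, were lower in the HSD group together with the members. Of 14 macrophage markers with a probe, 12 were usable, 10 were lower and none was higher, with a median log2 difference of −2.32. Their summed signal was 19894 intensity units under NSD and 9753 under HSD. Sums of markers are of signals before scaling, and the 75th percentile was 252 under NSD and 233 under HSD. Mrc1 (the mannose receptor) gave 134.3 and 5.49 (−4.50), Fcgr1 (a high-affinity Fc receptor) gave 304.7 and 21.9 (−3.68), and C1qc, with 10 spots, gave 52.6 and 5.61 (−3.11). Trem2, a lipid receptor of macrophages, gave 3348 and 669 (−2.21), and the chemokine Pf4 gave 1332 and 245 (−2.33). Adgre1, which encodes F4/80, gave 6723 and 4252 and did not pass 1.5-fold here (−0.55), but did under 4 of 8 processings. Another Adgre1 probe gave −0.25. C1qb was in the other direction (0.33). Vsig4 and Cd163 were dim on both arrays. Under the alternative processings, 9 to 11 macrophage markers were lower. With normexp correction there were 9, and the median was −0.87. The part of these markers in the differences of Ccl2, Ccl7 and Ccr2 was not tested.

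Monocyte markers showed no such shift. Of 13 with a probe, Ccr2 was the only one called lower, 3 were higher, and the median log2 difference was 0.02. Their summed signal before scaling was 171492 intensity units under NSD and 173109 under HSD. Ly6c1 (0.02) and the integrin Itgam (0.09) were within 1.5-fold, as was the monocyte growth factor receptor Csf1r (−0.37). The higher markers were the endotoxin co-receptor Cd14 (0.82), the proteoglycan Vcan (0.67) and the chitinase-like Chil3 (0.65). Of these, Vcan fell short of 1.5-fold with normexp correction (0.56). Chil3 passed it under 5 of 8 processings, not after cyclic loess (0.50). These calls use the brightest probe of a gene. Other probes of Ms4a4c (−1.36 and −0.83) and F13a1 (−0.61) were past 1.5-fold lower, and the other usable Vcan probe (0.42) was within it. Neutrophil markers had a summed signal before scaling of 384764 and 373642, with Mpo (−0.92) lower, none higher and 11 of 12 within 1.5-fold. Other possible sources of CCL2 were read from their marker lists in the same way. Summed carcinoma cell markers gave 258 intensity units under NSD and 242 under HSD, fibroblast markers 392.5 and 350.9, and endothelial markers 566 and 574. These sums are also unscaled, and sums this close do not give a direction. Of the fibroblast markers, 3 of 7 usable genes were lower, among them Fap with 58.7 and 21.4 (−1.34), and 1 was higher. Of the carcinoma cell markers, 3 of 9 were higher, among them Krt18 with 15.9 and 25.0 (0.76), and none was lower. No endothelial marker was called by its brightest probe, but the probes of Kdr disagreed, with 0.28 for that probe and −2.49 for another. All 3 fibroblast calls for a lower level and all 3 carcinoma calls were lost with normexp correction, and whether these cells had a part in the members' differences was not tested.

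**Figure D3:**
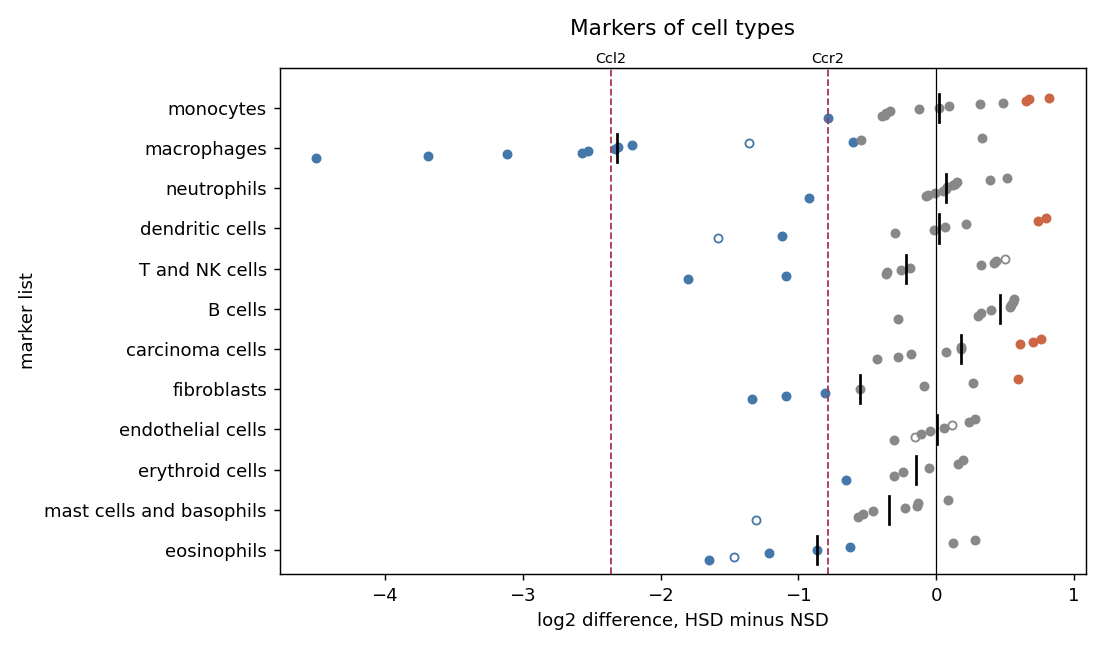
Log2 difference, HSD minus NSD, of each usable marker by cell type; filled circles are measured on both arrays, open circles are bounds, blue is lower, orange higher and grey within 1.5-fold, black bars are list medians, and the dashed lines mark Ccl2 (−2.36) and Ccr2 (−0.78). The macrophage median (−2.32) lies next to the Ccl2 line on this scale, and the monocyte and neutrophil medians lie near 0. With normexp correction the macrophage median is −0.87 and Ccl2 is at −2.11, so they lie apart.

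Genes whose difference was nearest to that of a member were sought among the 15208 named genes well above background on both arrays. The 5 nearest to Ccl2 were Mrs2, Lrrc6, Taf7l, Cltrn and Il24, whose log2 differences lay within 0.014 of it. The 5 nearest to Ccr2 were Krt86, Cd300c2, Skint7, Defb29 and Klk1b8, within 0.00094. With 2 arrays, nearness of a single difference is all that this measure reads.

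The direction of the 3 called members was the same under each processing that gave them a value. Some of these could not change it, such as the median over probes, since each member has 1 probe. The log2 difference ranged from −2.49 to −2.11 for Ccl2 and from −0.82 to −0.69 for Ccr2. For Ccl7 it ranged from −3.48 to −3.19 without normexp correction.

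**Figure D4:**
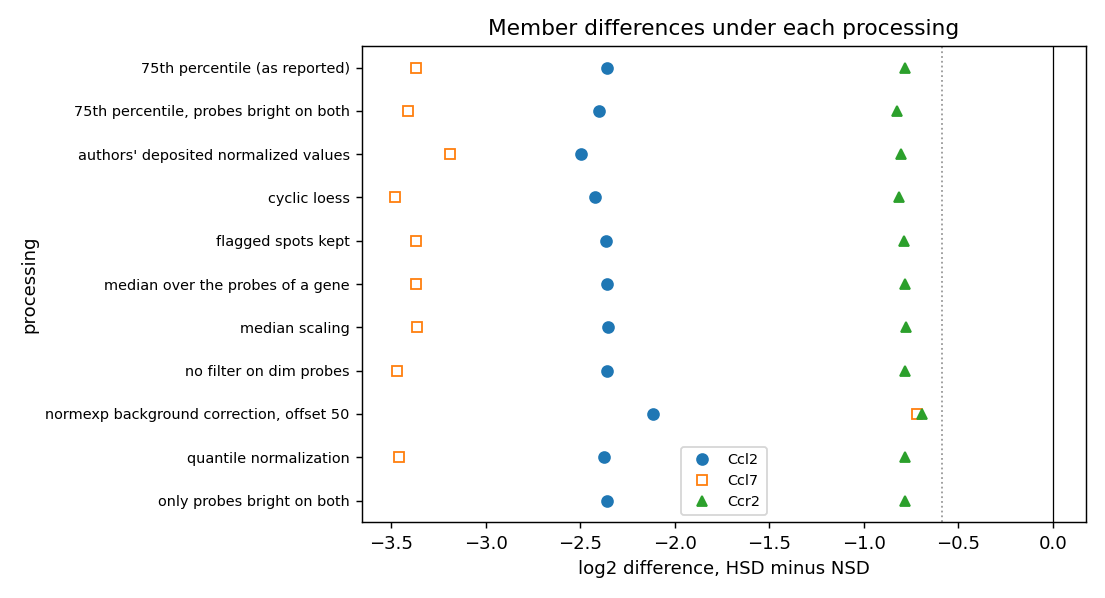
Log2 difference, HSD minus NSD, of Ccl2 (circles), Ccl7 (open squares) and Ccr2 (triangles) under each processing, with a dotted line at 1.5-fold lower. Each point lies left of that line, and normexp correction moves Ccl7 to −0.72.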

How the data were processed

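RNA of pooled M-MDSCs was measured on 1 array per diet, and samples were grouped by the diet in their labels. The authors deposited the scanner output, whose processed signal is an intensity corrected for background by Feature Extraction 11.0.1.1, and a table of normalized log2 values made with GeneSpring. The normalization behind that table is not given in the sources used here. The deposited columns have the same median (4.61) and nearly the same lowest value (2.3230 and 2.3225), where Ccl8 and Ccl12 lie on both arrays. The deposited values of Ccl2, Ccl7 and Ccr2 rank the arrays as the scanner output does. The table served as an alternative only.

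Control spots and flagged spots (162 on the NSD array, 179 on the HSD array) were left out, signals were taken to log2, the mean was taken over the spots of a probe, and each array was set to its own 75th percentile. A probe with several spots counted as well above background when at least 50% of them were. Transcript identifiers were matched, without versions, to RefSeq (GRCm38.p6), which named 27223 probes (69.1%). The probe with the highest mean log2 signal stood for a gene. Other probes of some list genes lay on the other side of the 1.5-fold threshold, and the counts do not include them. The array design was annotated on another assembly, so gene coordinates are not given, and gene order is that of RefSeq.

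The members and the gene lists (6 of pathways, 12 of cell type markers, written from general knowledge) were chosen with earlier results of these data known. Named genes are all members, the list genes past 1.5-fold (up to 4 each way, by size), the 5 genes nearest to Ccl2 and to Ccr2, and defining markers. List genes within 1.5-fold and further list genes past it (Ccrl2 is one) were named after their values were seen. Some list genes were counted but are not reported here by name. No test was run, since the number of arrays limits the precision. The counting was tested on simulated data. Alternatives were normexp correction (on the median spot signals, which the files hold), quantile normalization, median scaling, cyclic loess, scaling on probes bright on both arrays, the deposited log2 values, flagged spots kept, stricter and no filters on dim probes, a 2-fold threshold, and the median over a gene's probes. The arrays shared 1 slide. The software was limma 3.58.1 in R 4.3.3, and pandas 2.3.3, numpy 2.4.6 and matplotlib 3.10.9 in Python 3.11.15.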

Additional observations from a re-analysis of the deposited data

How the results depend on the processing

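Some alternatives could not change the values of Ccl2 and Ccr2. Each has 1 probe, well above background on both arrays and with no flagged spot. The median over probes, the filters on dim probes and the 2-fold threshold therefore left their values as they were, and keeping flagged spots changed only the scaling. Under the other alternatives both kept their direction and stayed past 1.5-fold. Ccl7 did so wherever it had a value, but normexp correction reduced its log2 difference to −0.72. That correction adds an offset of 50 to every spot, which by construction shrinks differences of dim probes. Over all genes it left 655 lower and 625 higher, against 1682 and 1608. The count of members called lower was 2 with a 2-fold threshold, which Ccr2 misses, and 2 when a probe had to be well above background on both arrays, which Ccl7 misses. It was 3 otherwise, and none was called higher under any. Across the alternatives the median log2 difference changed sign for the other chemokine receptors (−0.08 to 0.04) and the atypical receptors (−0.32 to 0.01), and stayed above 0 for the other 4 pathway lists. No paired analysis was possible because each diet has 1 array, and no array could be left out for the same reason. Signal over background limits Ccl7 on the HSD array, and Ccl8 and Ccl12 on both.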

Other observations

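Cell types that carry receptors related to CCR2 showed further differences. Of 7 eosinophil markers, all usable, 5 were lower under HSD and none was higher, with a median log2 difference of −0.86. Their summed signal before scaling was 1023 intensity units under NSD and 813 under HSD. Prg2, a granule protein, gave 167.6 and 49.4 (−1.65), whereas the interleukin-5 receptor Il5ra (0.28) and Siglecf (0.12) were within 1.5-fold. Ccr3 is on this list as well as among the receptors. With normexp correction Prg2 alone of these markers was lower. Of 8 mast cell and basophil markers, Cma1 alone was called, and it was lower (bound −1.30), a call lost with normexp correction (−0.08).

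Most lymphocyte markers were within 1.5-fold by their brightest probe. Of 10 usable T and NK cell markers, Il7r, the interleukin-7 receptor, gave 809.3 intensity units under NSD and 214.5 under HSD (−1.80), Cd3e gave 114.7 and 49.8 (−1.09), and the other 8 were within 1.5-fold. No B cell marker was called by its brightest probe. The median log2 difference of these markers was 0.47, against 0.05 over all genes. It was 0.31 to 0.47 under the alternative processings. Another probe of the B cell marker Cr2 gave 0.78. Of 8 usable dendritic cell markers, Batf3 (−1.12) and Cd209a (bound −1.58) were lower, and Itgax (0.74) and Clec9a (0.80) were higher. With normexp correction Itgax alone of these was called, as Batf3 (−0.41), Cd209a (−0.24) and Clec9a (0.23) fell short of 1.5-fold. Among 6 usable erythroid markers, Hbb-bs (−0.66) was lower and none was higher, and Hbb-bs was not called with normexp correction (−0.47).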
